A study of Equus caballus with 10 samples.

Results

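The genes described here encode ligands and receptors of the interleukin-1 (IL-1) family. They were taken by symbol, and all 10 were found among the 29196 genes of the deposited table. The ligands were IL1A, IL1B, IL18 and IL33, with the antagonist gene IL1RN. The receptors were IL1R1, IL1R2, IL1RAP, IL1RL1 and IL18R1. The cells were primary tenocytes from the superficial digital flexor tendon of 5 Thoroughbred or Thoroughbred-type horses, expanded in culture and then kept for 14 days in 3D gels of bovine collagen. Each horse gave 1 library to each of 2 groups, and the donors are numbered 1 to 5. All gels received PF-06650833, which blocks the kinase IRAK-4, at 100 nM every day. One group had nothing else (PF-06650833 alone, here the inhibitor alone), and the other also had recombinant IL-1β at 17 ng/ml every 3 to 4 days (IL-1β plus PF-06650833, here IL-1β with inhibitor). Untreated gels and gels with IL-1β alone were not analysed here, so every difference below is that of IL-1β in the presence of the inhibitor.

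IL-1α, encoded by IL1A, and IL-1β, encoded by IL1B, bind the same receptor, IL1R1, which then recruits the co-receptor IL1RAP. The complex signals through the adaptor MyD88 and the IRAK kinases to NFκB. IL1RN encodes IL1Ra, which occupies IL1R1 without signalling, and IL1R2 is a decoy receptor that binds the ligand but lacks the signalling domain. IL-33 signals through IL1RL1, also named ST2, together with IL1RAP, and IL-18 through IL18R1 with IL18RAP. IL-1β is known from injured tendon and acts on the gene expression of tendon fibroblasts. The IL-1β added to the gels was a protein, so it carried no IL1B RNA.

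Expression is given as the authors' log2 values, on which 0 reads stand at 3.433, the lowest value of the table. Read numbers are estimates made by inverting that scale, and they came to between 26349524 and 35647863 per library. The scale compresses differences between small read numbers, so a log2 fold change of a gene with few reads is smaller than that of its reads. The test, limma, was run on genes that exceeded 3.433 in 5 or more of the 10 libraries. Differential expression required both an adjusted p below 0.05 and a log2 fold change of 1 or more in size. IL1RN and IL18R1 had too few reads to be tested, which left 8 genes. Of all 17992 genes tested, 6.68% were differentially expressed, 3.11% higher and 3.57% lower in the IL-1β gels. Since the same horses stand in both groups, the fit was repeated with the donor as a block, which gave 8.26% of genes, 4.01% higher and 4.25% lower.

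Markers of tendon cells were read in all libraries, apart from TNMD, which was at the value of 0 reads in all 10. Of 10 tested tenocyte markers, 4 fell in the IL-1β gels (SCX, MKX, TNC and COMP), and 6 with the donor as a block (COL1A1 and COL1A2 also). Not all of the list was lower, as DCN was higher in all 5 donors (log2 fold change 1.01, adjusted p = 0.268 from limma, and 0.0529 with the donor as a block). LUM was higher in 2 of 5 donors (0.33, adjusted p = 0.693 from limma, and 0.483 with the block). Of 9 markers of macrophages or monocytes, AIF1 and TYROBP had 0 reads in all libraries, PTPRC had 3 reads and CSF1R 1 read over all 10, and CD68 was the marker that rose, from 340 to 1456 reads over the 5 libraries of a group. The normalized counts of the 9 markers summed to between 61.3 and 1767 under the inhibitor alone and to between 171 and 1944 in the IL-1β gels, with CD14 among the 9. CD14 went from 1456 to 1354 reads in donor 1, from 229 to 617 in donor 2, from 0 to 288 in donor 4 and from 0 to 1037 in donor 5, and had 0 in both libraries of donor 3. Its log2 fold change of 2.66 did not pass (adjusted p = 0.340 from limma, and 0.106 with the donor as a block). CD14 was higher on the log2 scale in 4 donors and lower in 0. Of 5 endothelial markers 3 were tested and 0 were differentially expressed with limma, with 1 at an unadjusted p below 0.05, PECAM1. Its log2 fold change was 0.67, while VWF and KDR went the other way, with -0.73 and -0.34. With the donor as a block the unadjusted p from limma was 0.0555 for PECAM1, 0.0167 for VWF and 0.169 for KDR. The mast cell markers KIT and MS4A2 and 4 of 5 lymphocyte markers had 0 reads throughout. The part of these markers in the values below was not tested, and in bulk libraries fewer cells of a type and less RNA per cell cannot be told apart.

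IL1A and IL1B were differentially expressed and rose in the IL-1β gels. They were 2 of the 8 tested genes, where 6.68% of all tested genes were differentially expressed. With the donor as a block IL18 also rose and IL33 fell, which made 4 of the 8, beside 8.26% of all tested genes. No receptor gene passed both thresholds on the deposited scale. The median log2 fold change of the 8 genes was 0.78, beside -0.01 over all tested genes. It includes IL1A and IL1B, which passed the filter on low values only through the IL-1β gels. The plot by library shows that for IL1A, IL1B and IL1R2 the groups did not overlap, as was the case for 12.7% of all tested genes.

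**Figure D1:**
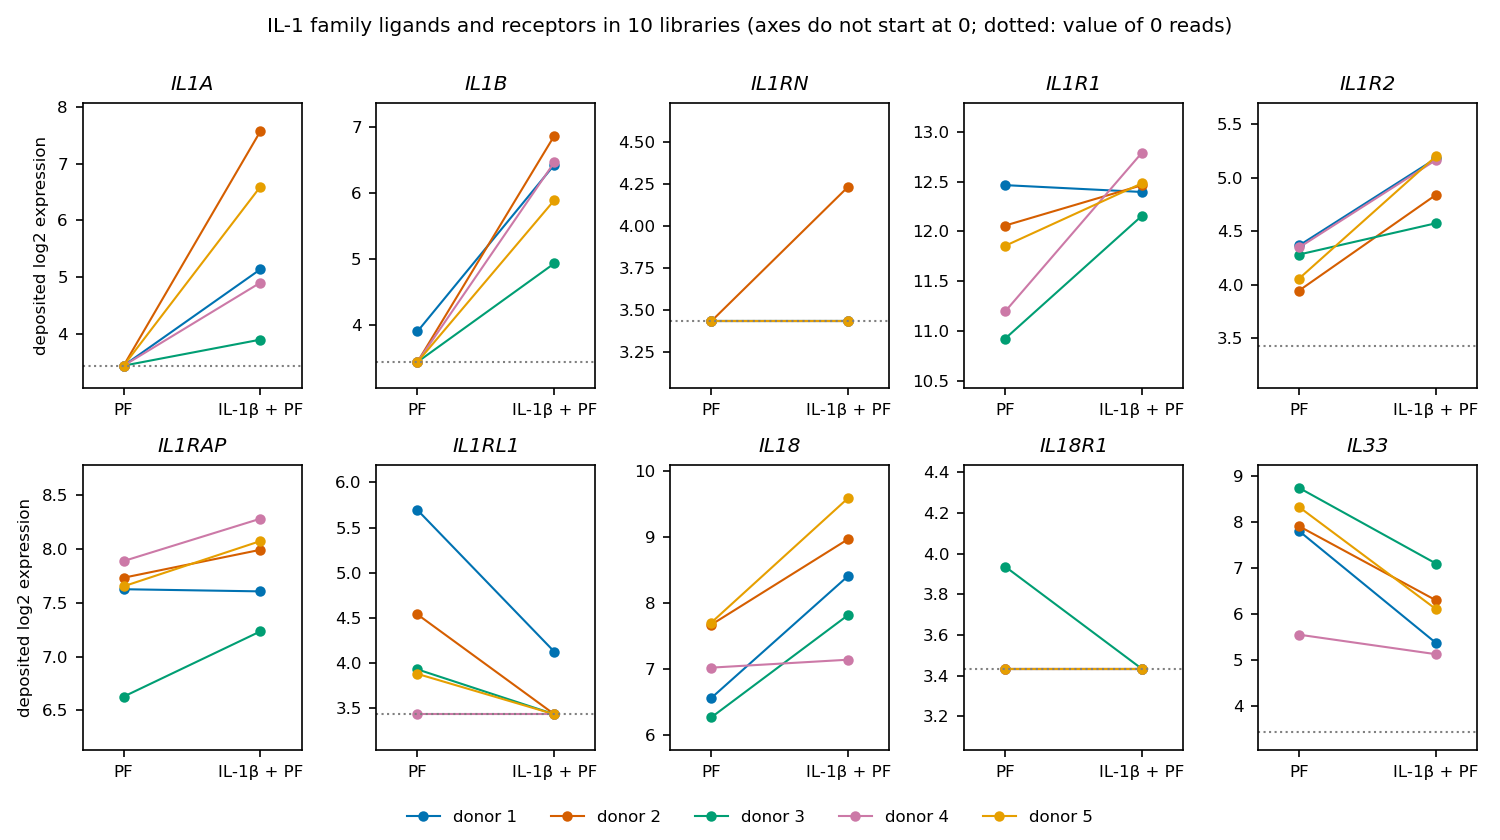
Deposited log2 expression (vertical axes, each with its own range) of the 10 genes under the inhibitor alone (PF) and in the IL-1β gels, with a line joining the 2 libraries of each of the 5 donors and a dotted line at the value of 0 reads. IL1A and IL1B leave the dotted line in all 5 donors, IL33 is lower in all 5, and IL1RN and IL18R1 leave it in 1 library each.

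IL1A encodes an agonist that most cells hold as an active precursor. Under the inhibitor alone it had 0 reads in all 5 libraries. In the IL-1β gels its log2 expression was 5.14 in donor 1, 7.58 in donor 2, 3.89 in donor 3, 4.90 in donor 4 and 6.60 in donor 5. These values stood for 14, 150, 1, 9 and 65 reads. Every library with IL-1β therefore lay above every library without it, but donor 3 by a single read, and 150 of the 238 reads came from donor 2. The log2 fold change was 2.19 (standard error 0.57, adjusted p = 0.0242 from limma), and the adjusted p was 0.0179 with the donor as a block. Set against a floor of 3 reads over the 5 libraries without reads, IL1A was at least 81.8-fold higher. Without donor 2, which leaves 88 reads, it was at least 31.9-fold higher. Both bounds rest on that set floor, which allows for counting error only. The gene could be tested only because of the group in which it was read.

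IL1A lost its call in 7 of 15 fits, each without 1 library or 1 donor. All 5 inhibitor-alone libraries had the same value, and without any 1 of them the log2 fold change stayed 2.19. Without that of donor 1, 4 or 5 the adjusted p from limma was 0.0501, 0.0503 and 0.0517. Without that of donor 2 or 3 it was 0.0497 and 0.0430, and without the IL-1β library of donor 5 it was 0.0583. Without both libraries of donor 1, 2 or 5 it was 0.0812, 0.0652 and 0.108. With the donor as a block the call was lost without donor 1 (adjusted p = 0.0538 from limma) and without donor 5 (0.0560).

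IL1B encodes the cytokine that was added to the gels as protein. The cells' own transcript had 1 read in donor 1 and 0 reads in donors 2 to 5 under the inhibitor alone. In the IL-1β gels its log2 expression was 6.43 in donor 1, 6.87 in donor 2, 4.93 in donor 3, 6.47 in donor 4 and 5.89 in donor 5. The reads behind these values numbered 53, 85, 11, 48 and 34. Again donor 3 was the lowest and donor 2 the highest, and the groups were well apart. The log2 fold change was 2.59 (standard error 0.32, adjusted p = 6.52e-04 from limma), and the call held in all 15 fits without a library or a donor. Like IL1A, the gene passed the filter on low values only through the group in which it was high, and it could not be fitted when reads were required in all 10 libraries. In reads the ratio was 237, with a 95% interval from 42.1 to 9406 that covers counting error only and is wide because 1 read stands on one side. Without donor 1 the reads were 0 and 177, and without donor 2 they were 1 and 146. A table of RefSeq genes for another horse assembly, TB-T2T, lists 2 genes with the synonym IL1B next to each other, so reads may be shared with a similar copy and the level of IL1B is less certain.

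IL1RN, the gene of the natural antagonist of IL1R1, was nearly without reads. Under the inhibitor alone 0 reads were found in all 5 libraries. A set floor of 3 reads over the group, for counting error only, was taken as what 0 reads could allow. Of the IL-1β gels, that of donor 2 had 3 reads and the other 4 had 0. No induction of IL1RN was detectable at this depth, in the same libraries in which IL1A and IL1B were read in 5 of 5 donors.

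**Figure D2:**
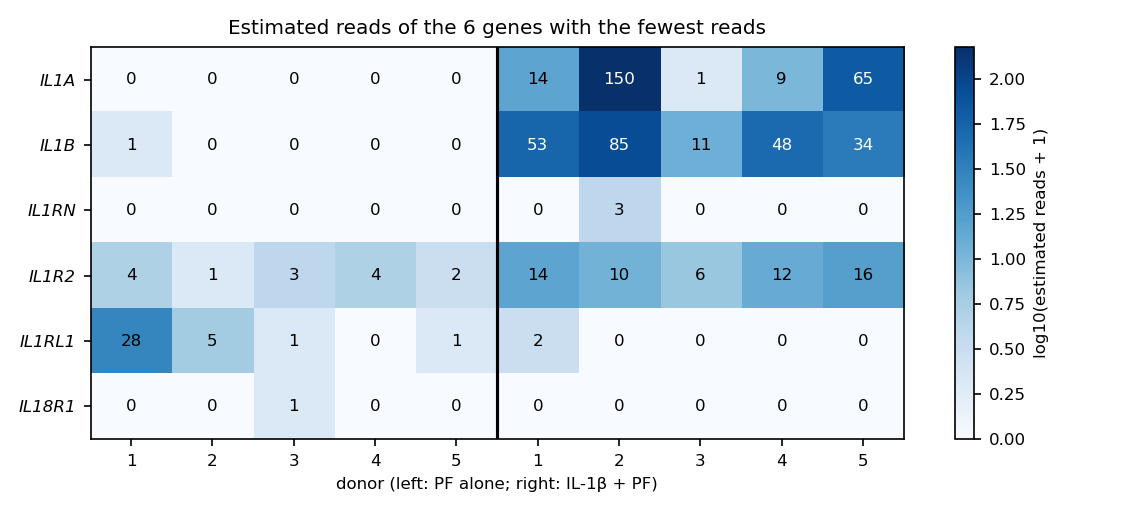
Estimated reads of the 6 genes with the fewest reads (rows) in each library, by donor (columns), under the inhibitor alone on the left and with IL-1β on the right of the black line, and colour for log10(reads + 1). Reads of IL1A, IL1B and IL1R2 lie mainly on the right, those of IL1RL1 on the left, with 28 of its 35 in donor 1.

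IL18 encodes a cytokine that is made as an inactive precursor and induces interferon-γ in lymphocytes. Under the inhibitor alone its log2 expression was 6.57, 7.67, 6.27, 7.02 and 7.70 in donors 1 to 5. In the IL-1β gels the values of the same donors were 8.41, 8.97, 7.82, 7.14 and 9.59. All 5 donors were higher with IL-1β, but donor 4 by only 0.12, against 1.29 to 1.88 in the other 4, and the groups overlapped. Without a donor term the log2 fold change was 1.34 (standard error 0.45, adjusted p = 0.0702 from limma), which did not pass. With the donor as a block the standard error was 0.26 and IL18 rose (adjusted p = 0.0104 from limma), and it kept the call when any donor was left out of that fit. Without a donor term it passed once the IL-1β library of donor 4 (adjusted p = 0.0191 from limma) or both of that donor's libraries (0.0400) were left out.

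IL33 encodes an alarmin of the nucleus that is released from damaged stromal and endothelial cells, and it was the one ligand gene of the 4 that went down. In donors 1 to 5 its log2 expression under the inhibitor alone was 7.80, 7.91, 8.74, 5.55 and 8.33. The values in the IL-1β gels were 5.37, 6.30, 7.10, 5.13 and 6.11. Each donor was lower with IL-1β, with differences of -2.43, -1.61, -1.65, -0.42 and -2.22 on the log2 scale. Donor 4 was already low with the inhibitor alone, at 26 reads against 163 to 308 in the other donors, and this made the groups overlap. The log2 fold change was -1.67 (standard error 0.57, adjusted p = 0.0744 from limma), which did not pass without a donor term. With the donor as a block IL33 fell (standard error 0.29, adjusted p = 0.00635 from limma), also when any donor was left out of that fit. Without a donor term it passed when the inhibitor-alone library of donor 4 (adjusted p = 0.00789 from limma), both libraries of donor 4 (0.00917) or the IL-1β library of donor 3 (0.0453) were left out.

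**Figure D3:**
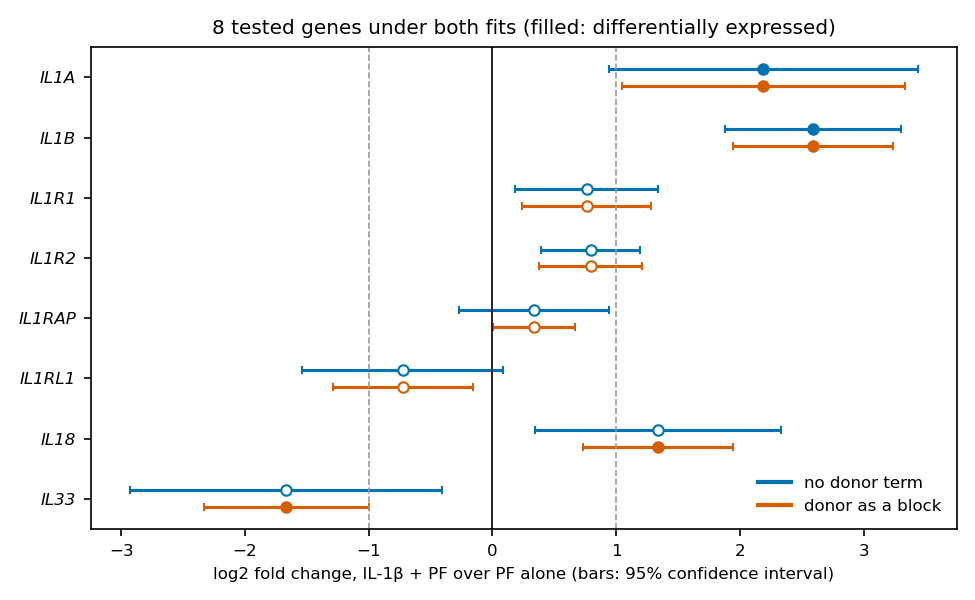
Log2 fold change (horizontal axis) of the 8 tested genes for IL-1β with inhibitor over the inhibitor alone, without a donor term (blue) and with the donor as a block (orange), with 95% confidence intervals, dashed lines at -1 and 1 and filled points for differential expression. IL1A and IL1B are filled in both fits and IL18 and IL33 in the blocked fit, while the points of the 4 tested receptor genes lie within the dashed lines.

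IL1R1, the signalling receptor, was read at 1453 to 4939 reads per library under the inhibitor alone. Its log2 expression there was 12.47, 12.06, 10.92, 11.20 and 11.86 in donors 1 to 5. In the IL-1β gels it was 12.40, 12.47, 12.16, 12.79 and 12.48. The donors were spread with the inhibitor alone (SD 0.63, n = 5) and close together with IL-1β (SD 0.23, n = 5). Donors 3 and 4, the lowest with the inhibitor alone, differed most, and donor 1, the highest, by -0.07. The log2 fold change was 0.76 (95% confidence interval 0.18 to 1.33, adjusted p = 0.0747 from limma). With the donor as a block the adjusted p was 0.0466, but the fold change stayed under the minimum.

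IL1RAP is the co-receptor shared by the receptors for IL-1 and IL-33. Under the inhibitor alone its log2 expression was 7.63, 7.73, 6.63, 7.89 and 7.65 in donors 1 to 5. The same donors had 7.61, 7.99, 7.23, 8.28 and 8.07 in the IL-1β gels. Donor 3 was the lowest of both groups, and 4 of 5 donors were higher with IL-1β. The log2 fold change of 0.33 did not pass (95% confidence interval -0.27 to 0.94, adjusted p = 0.466 from limma, and 0.137 with the donor as a block).

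IL1R2, the decoy, had few reads in these cells. Under the inhibitor alone 4, 1, 3, 4 and 2 reads were found in donors 1 to 5. Gels with IL-1β had 14, 10, 6, 12 and 16. The lowest library with IL-1β lay above the highest without it, at log2 values of 4.58 and 4.37. On the deposited scale the log2 fold change was 0.79 (standard error 0.18, adjusted p = 0.0137 from limma), below the minimum fold change, and the adjusted p was 0.0182 with the donor as a block. With values turned back to log2(normalized count + 1), where few reads are compressed less, it was 1.85 (adjusted p = 0.0128 from limma), past both thresholds. All of this rests on few reads, 14 under the inhibitor alone and 58 with IL-1β.

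IL1RL1, the receptor of IL-33, went the other way with few reads. It had 28, 5, 1, 0 and 1 reads in donors 1 to 5 under the inhibitor alone. Of the IL-1β gels, that of donor 1 had 2 reads and the others 0. Its log2 fold change of -0.72 did not pass (standard error 0.37, adjusted p = 0.219 from limma, and 0.0706 with the donor as a block), with 4 donors lower and donor 4 at 0 reads in both groups. Over the libraries of a group the ratio was 17.0 in favour of the inhibitor alone (95% interval 4.36 to 146, counting error only). Without donor 1 there were 7 reads against 0, so the size of the difference rests on that donor. IL18R1, the receptor of IL-18, had 1 read over all 10 libraries, in donor 3 under the inhibitor alone, and its partner IL18RAP had 0. A lower or higher level of the IL-18 receptor with IL-1β was not detectable at this depth.

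In the TB-T2T annotation 6 receptor genes of the family follow each other in the order IL18RAP, IL18R1, IL1RL1, IL1RL2, IL1R1 and IL1R2, with 0 other protein-coding genes between them. Read along this row, IL18RAP and IL18R1 were almost silent, IL1RL1 had a negative log2 fold change, and the last 3 had positive ones. None of these genes passed both thresholds on the deposited scale, and a link to position was not tested. IL1RL2, which encodes the receptor of IL-36 cytokines, had 81, 69, 1, 43 and 95 reads in donors 1 to 5 under the inhibitor alone and 81, 106, 48, 87 and 145 in the IL-1β gels. It was higher in all 5 donors, most in donor 3, and its log2 fold change of 0.90 did not pass (adjusted p = 0.295 from limma), nor did it with the donor as a block. In donor 3 with the inhibitor alone IL1R1, IL1RAP and IL1RL2 were each at their lowest value of the 10 libraries.

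The balance between receptors was taken as the difference of their log2 values within a library, which needs no comparison of gene lengths between groups. IL1RAP minus IL1R1 was -4.19 ± 0.55 (SD, n = 5) under the inhibitor alone and -4.62 ± 0.22 (SD, n = 5) in the IL-1β gels, a difference of -0.43 (exact two-sided permutation test, p = 0.119, and 0.125 when the libraries were paired by donor). It was lower with IL-1β in 4 of 5 donors. In 13 of 15 unpaired exact permutation tests that left out a library or donor, the p also stayed above 0.05. The 2 others both left out the inhibitor-alone library of donor 1. Without that library alone the difference was -0.59 (exact permutation test, p = 0.00794, libraries not paired). Without both libraries of that donor it was -0.55 (exact permutation test, p = 0.0286 not paired and 0.125 paired). Since 0.125 is the smallest p that 4 pairs allow, the paired test could not pass 0.05 and does not decide here. IL1R2 minus IL1R1 differed by 0.03 on the deposited scale (exact two-sided permutation test, p = 0.905, and 0.938 paired). With log2(normalized count + 1) as the scale the decoy gained 1.08 on the signalling receptor (exact two-sided permutation test, p = 0.0635, and 0.188 paired), and this was so in 4 of 5 donors. The smallest p that 5 libraries against 5 allow is 0.00794, and for 5 pairs it is 0.0625, so the paired test could not pass 0.05. The balance of IL1RN and IL1B was not computed, since both were at 0 reads in some libraries.

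Further genes of the pathway were taken from 3 lists. Of 12 other genes of the IL-1 family 10 were in the table, 5 of these had 0 reads in all libraries, 4 were tested and 0 were differentially expressed with limma, with or without the block. Of the 4, 2 had an unadjusted p below 0.05 without the block. Beside shares of 6.68% and 8.26% over all tested genes, 0 of 4 says little about this list. IL18BP, the soluble inhibitor of IL-18, had a log2 fold change of -0.57 and was lower in all 5 donors (adjusted p = 0.129 from limma). SIGIRR, a receptor of the family that dampens signalling, had one of -0.51 (adjusted p = 0.307 from limma). IL37, which encodes an anti-inflammatory ligand, was higher in all 5 donors with 38 reads against 10 (log2 fold change 0.78, adjusted p = 0.0730 from limma, and 0.0266 with the donor as a block), but in the TB-T2T annotation its gene overlaps IL1A and both copies of IL1B, so its reads may not be its own.

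Of 20 genes of IL-1 receptor signalling, all tested, 5 were differentially expressed, 4 higher and 1 lower, and the same 5 with the donor as a block. Of all tested genes 6.68% were differentially expressed without the block and 8.26% with it. NFKBIA, the inhibitor of NFκB that NFκB itself induces, had a log2 fold change of 1.64 and NFKB1, a subunit of NFκB, of 1.15, each higher in all 5 donors (adjusted p = 1.07e-04 and 4.36e-04 from limma). IRAK2, a kinase of the receptor complex, went from between 485 and 1329 reads to between 2376 and 3595 (log2 fold change 1.86, adjusted p = 0.00218 from limma). IRAK3, which restrains that complex, rose with a log2 fold change of 1.04 (adjusted p = 0.0117 from limma), just over the minimum, and was under it in 5 of 15 fits, those without donor 4 (0.82), the IL-1β library of donor 1 (0.98) or 4 (0.92), or the inhibitor-alone library of donor 4 (0.95) or 5 (0.96). PELI2, a ubiquitin ligase that binds IRAK proteins, was the gene that fell past both thresholds. It had a log2 fold change of -1.12 with an adjusted p of 0.0219 from limma, and was lower in 4 of 5 donors. PELI2 lost its call in 7 of the 15 fits, with adjusted p-values from limma of 0.0549 and 0.0531 without the inhibitor-alone library of donor 1 or 2, 0.0567 without the IL-1β library of donor 2, and 0.0989, 0.118 and 0.0762 without donor 1, 2 or 5. Without the IL-1β library of donor 5 its fold change, -0.93, was under the minimum. With the donor as a block PELI2 kept its call in 2 of 5 fits without a donor (adjusted p up to 0.0953 from limma), and IRAK3 in 4 of 5. MAP3K7 and PELI1 passed the adjusted p but not the minimum fold change. MAP3K7 was lower in all 5 donors (log2 fold change -0.67, adjusted p = 0.00215 from limma) and PELI1 higher in all 5 (0.42, adjusted p = 0.0360 from limma). IRAK4, which encodes the target of PF-06650833, had a log2 fold change of 0.11 (95% confidence interval -0.14 to 0.35, adjusted p = 0.571 from limma). The median over the 20 genes was 0.09.

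**Figure D4:**
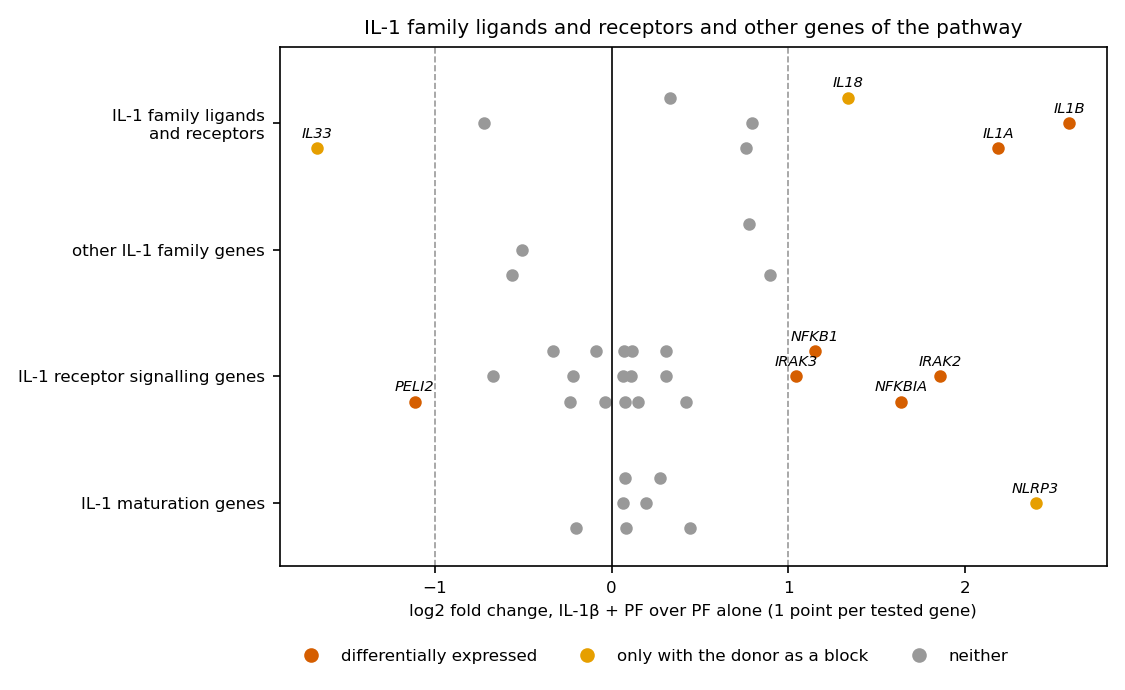
Log2 fold change (horizontal axis) of each tested gene of the IL-1 family ligands and receptors and of the 3 further lists (rows), IL-1β with inhibitor over the inhibitor alone, with dashed lines at -1 and 1 (points are shifted vertically for legibility). Red points passed both thresholds and yellow ones only with the donor as a block, and of these PELI2 and IL33 lie to the left of 0.

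Of 15 genes for the maturation and release of IL-1 cytokines, 13 were in the table and 8 were tested. None of the 8 was differentially expressed without a donor term (0 genes with limma, 1 gene at an unadjusted p below 0.05), and with the donor as a block NLRP3 was. The share over all tested genes was 6.68% without the block and 8.26% with it, so such counts over 8 genes say little about the list. NLRP3, the sensor of the inflammasome, had 12, 64, 12, 11 and 21 reads in donors 1 to 5 under the inhibitor alone. It had 97, 985, 63, 28 and 527 in the IL-1β gels, again highest in donor 2. Its log2 fold change was 2.40 (standard error 0.77, adjusted p = 0.0568 from limma, and 0.00753 with the donor as a block). CASP1, the protease that activates IL-1β and IL-18, had 0 reads under the inhibitor alone and 12 in the IL-1β gels, 10 of them in donor 2, and was not tested. GSDMD, whose product forms the pore through which IL-1β leaves the cell, had a log2 fold change of -0.20 (adjusted p = 0.429 from limma). The median over the 8 genes was 0.14.

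IL6, which encodes an inflammatory cytokine and responds to IL-1, had 10 to 503 reads per library under the inhibitor alone and 13734 to 49938 in the IL-1β gels. The genes whose values over the 10 libraries were most like those of IL1B were PPARA (Pearson r 0.988), WIPI1 (0.979) and MFSD13A (0.976). Most like IL1A were SCG3 (0.988), NAMPT (0.985) and MS4A7 (0.985). These correlations describe 10 libraries in 2 groups and so follow the difference between the groups. MS4A7 had 0 reads over the 5 libraries under the inhibitor alone and 420 in the IL-1β gels, and NAMPT had 8626 and 26163.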

How the data were processed

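RNA of 10 libraries, 5 per group, was sequenced. The authors used Salmon (version 1.8 in the submitters' processing notes) against EquCab3.0, tximport for gene totals, and DESeq2 (version 1.36). They deposited log2 values, normalized across libraries. The transformation is not named, but the values have the form of its variance-stabilizing one, and inverting it from the shared lowest value gave normalized counts. The most frequent lowest count above 0 was taken as 1 read. Between 66.3% and 83.4% of values under 5.5 reads lay within 0.15 of a whole read, where evenly spread values give 30%.

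Groups and donors came from the sample titles. Both libraries of a horse shifted in the same way relative to the group means (correlation 0.367 to 0.506 over 5 pairs, -0.266 to 0.087 over 20 pairs of different donors), so the replicate number pairs them. The test was limma (3.58.1, under R 4.3.3), with its trend option and p-values adjusted by Benjamini-Hochberg, without a donor term, as the study's methods name none, and beside it with the replicate block. The fit was tested on simulated data without a donor effect, with log2 changes of 2 placed only in genes above a minimum mean count. That test does not cover the pairing or genes with few reads, such as IL1R2 and IL1RL1. Nor does it cover genes almost without reads in 1 group, such as IL1A and IL1B. Receptor balances were tested by exact permutation of libraries, and, chosen after the data had been seen, of pairs. Genes named are the 10 ligands and receptors, differentially expressed genes of the lists, and the 3 genes most like IL1A and IL1B. IL6 and cell type markers were added. Other genes, such as IL1RL2, IL37, NLRP3, MAP3K7, PELI1 and IRAK1, were named after their values were seen. The genes and lists were chosen with earlier results of these data known. Protein, promoter and motif comparisons were planned but not run here. Levels of different genes were not compared, since gene lengths were not used here. Intervals on reads cover counting error only. Alternatives were other scales, filters, normalizations, variance models and thresholds, and leaving out each library or donor.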

Additional observations from a re-analysis of the deposited data

Results flagged for a closer look

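Of 92 groups of 5 libraries, over the genes with values above and both receptor balances, 83 had any spread, and in 11 of these 1 library stood far from the other 4. For 6 of the 11, all reads came from a single library and the others had 0, which alone puts that library apart, so the usual chance of about 1 in 20 groups is no guide to these. Donor 1 gave the only IL1B read of the inhibitor-alone group (1 read, log2 value 3.90), donor 3 its only IL18R1 read (1 read, 3.94) and donor 4 its 3 reads of PTPRC (4.20). In the IL-1β gels the 3 reads of IL1RN all belonged to donor 2 (4.23), as did the 1 read of CSF1R (3.90), and the 2 reads of IL1RL1 to donor 1 (4.13).

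The other 5 rest on more reads or on a library at 0. Under the inhibitor alone IL1RAP stood at 6.63 in donor 3 (59 reads), against 7.63 to 7.89 in the other donors. SIGIRR was at 6.65 in donor 4 in that group, against 7.27 to 7.49, and NLRP3 at 6.73 in donor 2, against 4.89 to 5.36. In the IL-1β gels CD14 was at 3.43, the value of 0 reads, in donor 3, against 8.75 to 10.73. DCN, a collagen-binding proteoglycan, was at 15.10 in donor 5 of the IL-1β gels, against 16.69 to 17.33.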

How the results depend on the processing

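None of the 8 tested ligand and receptor genes changed direction under the alternatives in which it could be fitted. Among these 8, 2 were differentially expressed, 4 with the replicate block (also without donor 2, 3 or 4, chosen after the data had been seen) or with array weights, 5 with that block on values turned back to log2(normalized count + 1), where IL1R2 was added, 6 with the block when no minimum fold change was set (chosen after the data had been seen), 1 at an adjusted p below 0.01, and 0 when genes had to be above the lowest value in all 10 libraries, which leaves out IL1A and IL1B. Leaving out a library or donor gave 1 to 4. Over all genes the count was 1202, with 1809 for the blocked back-transformed values, 719 at an adjusted p below 0.01, 2782 without a minimum fold change, 3996 for the same with the block, and 762 to 1422 without a library or donor. The other family genes numbered 0, and 1 (IL37) with the block either on back-transformed values or without a minimum fold change. Signalling genes numbered 5, with 3 at an adjusted p below 0.01, 8 with the block and no minimum fold change, and 4 to 5 without a library or donor. Maturation genes numbered 0, and 1 (NLRP3) on both back-transformed scales, with array weights and in all fits with the replicate block, and 0 to 1 without a library or donor. IL1R2 minus IL1R1 ranged from -0.18 to 0.28 and IL1RAP minus IL1R1 from -0.59 to -0.21 without a library or donor. Pairing by donor, a replicate block chosen after the data had been seen, passed neither balance (0.03 and -0.43). IL1RN minus IL1B gave no value. The cause of these changes was not tested, apart from fewer samples or genes. Reads limit IL1R2, IL1RL1, IL1RN and IL18R1.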

Other observations

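In gels with IL-1β and the inhibitor donors 2 and 5 had the most reads of IL1A (150 and 65), IL18 (421 and 638), NLRP3 (985 and 527) and CD68 (648 and 320). Other genes had another order, as IL1B had 53, 85, 11, 48 and 34 reads in donors 1 to 5 and IL6 had 30768, 29132, 13734, 49938 and 29716. In donor 3 IL1A and IL1B had their fewest reads (1 and 11). Donor 4 stood apart in other genes, with the smallest differences of IL18 (0.12), IL33 (-0.42) and NLRP3 (1.00) between its libraries and the largest of IRAK2 (3.19) and IRAK3 (1.95). These values are given without a test, since the donors were picked after they had been seen.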
